A study of Arabidopsis thaliana with 3 samples.

Results

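The WRKY genes of Arabidopsis thaliana were examined for the presence of LDL1, a plant homologue of the animal histone demethylase LSD1, on their chromatin. Members were all nuclear protein-coding genes whose symbol or synonym in the gene table is WRKY followed by a number, which gave 71 of 27444 genes. Of these, 67 carry the WRKY name as primary symbol and 4 carry it as a synonym, namely WRKY1 (ZAP1), WRKY16 (TTR1), WRKY44 (TTG2) and WRKY63 (ABO3). RRS1 is listed with ATWRKY52 and without WRKY52, so it was left out of the counts, and its value is given separately. The chromatin came from whole 14-day-old seedlings of ecotype Col-0 grown in long days, which expressed LDL1 fused to green fluorescent protein (GFP) from the LDL1 promoter. The series has 2 replicate libraries precipitated with an anti-GFP antibody and 1 input library, all 3 from plants with the fusion. The DNA of each ChIP library was pooled from several precipitations, and whether the plants also kept a working endogenous LDL1 gene is not given in the sources used here. A line without the fusion was not analysed here.

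WRKY proteins are plant transcription factors that carry the WRKY amino acid motif beside a zinc finger and bind the W-box in promoters. They act as activators or repressors, many of them in responses to pathogens and salicylic acid, others in senescence, nutrient supply, drought and development. Several repress or activate one another's genes. The family is divided by domain number and zinc finger type into group I, the subgroups IIa to IIe, and group III, and the groups are used below as they are generally assigned, without a check on sequence.

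The deposited ChIP data are 1 set of 5928 regions, given as chromosome, start and end, with no score, read count or replicate. A region counted for a gene if at least 1 of its bases fell in the gene body or in the flanks of 1 kb before and after it. The values therefore have no replicate error, the depth of the ChIP libraries is unknown, and nothing could be tested over samples. Genes are not replicates of one another, so shares of genes are given as counts beside the same share over all protein-coding genes, without a p-value. The exact intervals below treat genes as independent draws, though neighbouring genes can share a region. They give counting error only and are not tests. The input intervals covered between 95.7% and 100% of each WRKY gene body, so nearly the whole of all 71 genes lay in input intervals.

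Of the 71 WRKY genes, 9 held an LDL1:GFP region. They were WRKY40 and WRKY18 of subgroup IIa, WRKY35 and WRKY69 of subgroup IIe, WRKY28 and WRKY48 of subgroup IIc, WRKY47 of subgroup IIb, WRKY11 of subgroup IId and WRKY1 of group I. The share was 12.7% (exact Clopper-Pearson 95% interval 5.96 to 22.7%, counting error only), against 12.2% of all protein-coding genes. As a family, WRKY genes thus held regions about as often as other genes, and the interval extends well to both sides of the background. With gene bodies alone, 7 WRKY genes (9.86%) were overlapped, against 7.68% of all protein-coding genes. Regions occupied 1.03% of the bases in the windows of the 71 genes, against 1.25% over all protein-coding genes and 0.951% over those in the chromosome arms. The MYB genes, another large family of transcription factors found by the same naming rule, held a region in 13 of 125 cases (10.4%).

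**Figure D1:**
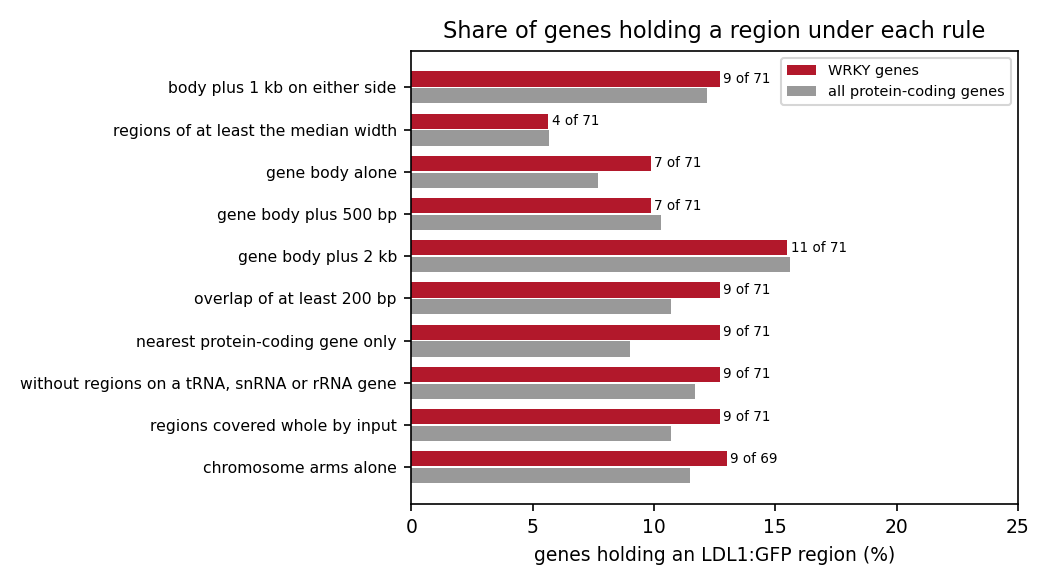
Share of genes holding an LDL1:GFP region (horizontal axis, percent) for WRKY genes (red, with counts) and all protein-coding genes (grey) under 10 rules for what counts as holding. With the main rule, in the top row, 9 of 71 WRKY genes (12.7%) stand beside 12.2% of all genes, and when regions under the median width are left out 5.63% stand beside 5.66%.

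The regions at WRKY genes were about as wide as those at protein-coding genes in general. The 11 regions measured 204 to 395 bp with a median of 277 bp, against a median of 282 bp for the 2650 regions at any protein-coding gene. Widths over 395 bp, which reach 33857 bp elsewhere, did not occur at a WRKY gene. The upper quartile of width over the 2650 regions was 359 bp, so most of those were also under 395 bp. The absence of wider regions among 11 therefore does not set WRKY genes apart. Each of the 11 was covered by input over its whole length, as were 85.4% of regions at protein-coding genes. None of the 11 overlapped a tRNA, snRNA or rRNA gene, as against 98 of the 2650 regions at any protein-coding gene. With so few among all regions, a count of 0 in 11 does not set WRKY genes apart.

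Subgroup IIa has 3 members, WRKY18, WRKY40 and WRKY60, which form complexes with one another and together restrain immunity and modulate the response to abscisic acid. WRKY40 held 2 regions. A region of 395 bp lay inside the gene body (chromosome 1, 30384948 to 30385342), with its midpoint at 81.7% of the body counted from the lower coordinate. A second region of 241 bp (30385630 to 30385870) started 288 bp beyond the first, lay 131 bp outside WRKY40 and overlapped AT1G80850, a gene whose body meets that of WRKY40. WRKY18 held 1 region of 386 bp inside the body (chromosome 4, 15384430 to 15384815), at 79.4% of the body. This region also lay 465 bp from the next gene, AT4G31805. WRKY60 held none, and its nearest region lay 39462 bp away. Subgroup IIa thus had a region in 2 of 3 members, the widest regions at WRKY40 and WRKY18 being the 2 widest of the family, but 3 genes are too few to set against the background.

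Subgroup IIe held a region in 2 of 8 members (25%). The exact 95% interval, 3.19 to 65.1%, includes the 12.2% of all protein-coding genes. WRKY35, also named MEE24 after an arrest of embryo development, had a 264 bp region inside it (chromosome 2, 14696119 to 14696382) at 82.2% of the body. WRKY69 held 2 regions of 207 and 204 bp (chromosome 3, 21715583 to 21715789 and 21716546 to 21716749), both inside the body. The first overlapped the long non-coding RNA gene AT3G09145. The second overlapped AT3G58720, a protein-coding gene whose body runs into that of WRKY69, so it cannot be given to one of the pair. WRKY22 and WRKY29, which act downstream of a MAP kinase cascade set off by bacterial flagellin, held none. The nearest region lay 2114 bp from WRKY22 and 24287 bp from WRKY29.

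Subgroup IIc is the largest, and 2 of its 17 members (11.8%) held a region. Its exact 95% interval, 1.46 to 36.4%, includes the 12.2% of all protein-coding genes. WRKY48, a stress-induced activator that dampens basal defence, had a 275 bp region inside it (chromosome 5, 20092415 to 20092689) at 70.6% of the body. WRKY28, an activator of the salicylic acid synthesis gene ICS1, had a 277 bp region (chromosome 4, 10060209 to 10060485) in its lower-coordinate flank, 729 bp away. WRKY75, a regulator of the response to phosphate starvation, lay 4955 bp from a region. WRKY71, which promotes flowering and shoot branching, was the WRKY gene farthest from any region, at 175908 bp, and WRKY57 of the same subgroup, linked to drought tolerance, was 112524 bp away.

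Subgroups IIb and IId had 1 gene each with a region (12.5% and 14.3%). Their exact 95% intervals, 0.316 to 52.7% and 0.361 to 57.9%, include the 12.2% of all protein-coding genes. In IIb, with 8 members, WRKY47 had a 306 bp region (chromosome 4, 743979 to 744284) at a distance of 520 bp, and no body was overlapped. WRKY6, a factor of senescence and phosphate supply in the same subgroup, was 107029 bp from the nearest region. In IId, with 7 members, WRKY11 had a 313 bp region inside it (chromosome 4, 15290335 to 15290647) at 32.8% of the body. WRKY17, which acts with WRKY11 as a repressor of basal resistance, held none, with the nearest region 5661 bp away.

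In group I, 1 of 15 members (6.67%) held a region. The exact 95% interval for group I, 0.169 to 31.9%, includes the 12.2% of all protein-coding genes. WRKY1 shared 33 bp with a 277 bp region (chromosome 2, 1717589 to 1717865) that spans the lower-coordinate end of the gene. WRKY33, needed for camalexin synthesis and for resistance to necrotrophic fungi, lay 75193 bp from the nearest region. Its relatives WRKY25 and WRKY26 lay 2078 and 11588 bp away. WRKY44 (TTG2), which acts in trichomes and the seed coat, lay 23468 bp away.

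Group III held no region in 13 members, a count of 0 with an exact Clopper-Pearson 95% upper limit of 24.7%, which includes the 12.2% of all genes. WRKY70, placed between salicylic acid and jasmonate signalling, was 12399 bp from the nearest region, and WRKY53, a regulator of leaf senescence, was 19051 bp away. WRKY46, which acts in defence and osmotic stress, was 6995 bp away. WRKY38 and WRKY62, known as partners of the histone deacetylase HDA19 that dampen basal defence, stood 117508 and 9140 bp from a region. The nearest of group III was WRKY30, at 2315 bp.

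**Figure D2:**
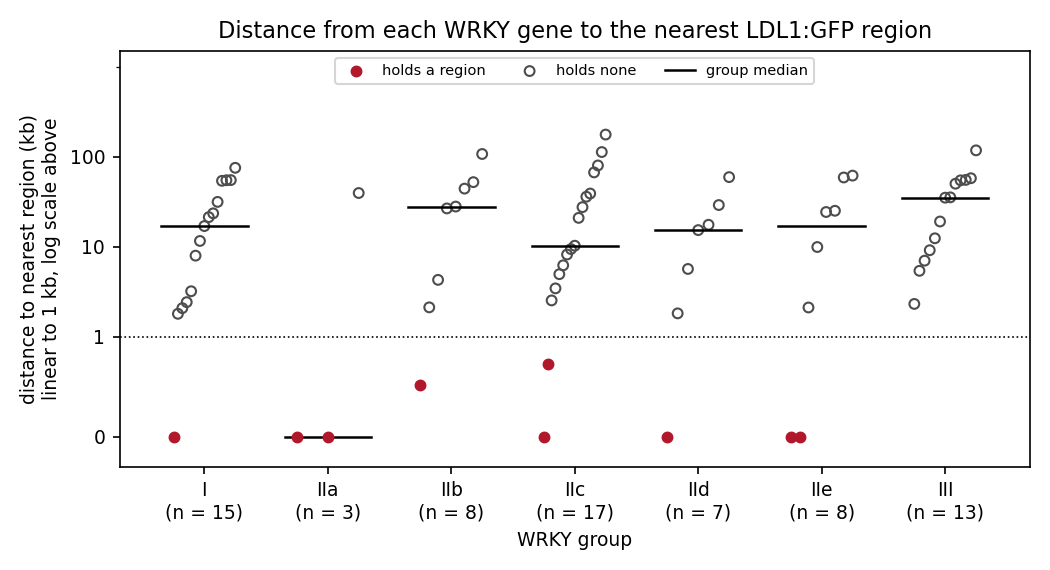
Distance from each of the 71 WRKY genes to the nearest LDL1:GFP region (vertical axis, kb, linear up to 1 kb and logarithmic above) by WRKY group, with red points for genes that hold a region, open points for those that hold none, bars for group medians and a dotted line at 1 kb. Group III has no red point, and subgroup IIa has 2 of 3.

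Over the family, the median distance to the nearest region was 17524 bp, against 16574 bp for all protein-coding genes. More than 50 kb separated 18 WRKY genes (25.4%) from a region, as against 20.6% of all genes. The limit of 1 kb fell in a gap of the WRKY distances. The genes just inside it were WRKY47 at 520 bp and WRKY28 at 729 bp, and the genes just outside were WRKY2 at 1799 bp and WRKY15 at 1819 bp. Between 1 and 3 kb lay 8 WRKY genes (11.3%), against 6.92% of all genes: WRKY2, WRKY15, WRKY25, WRKY22, WRKY9, WRKY30, WRKY58 and WRKY13. With a limit of 500 bp the count became 7 of 71 (9.86%), against 10.3% of all protein-coding genes, and with a limit of 2 kb it became 11 of 71 (15.5%), against 15.6% of all protein-coding genes.

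Position within the gene was described without strand, which was not used here, so the start and the stop of a gene were not told apart. Of the 11 regions, 7 lay wholly inside the WRKY body, 1 spanned an end and 3 lay in the flank alone. Over the 4150 pairs of a protein-coding gene and a region, 35% were inside the body, 21.8% spanned an end, 2.19% covered the whole gene and 41.1% were in the flank alone. The regions inside WRKY40, WRKY18, WRKY35, WRKY48 and the second of WRKY69 had midpoints between 70.6% and 86.6% of the body from the lower coordinate. Those inside WRKY11 and the first of WRKY69 lay at 32.8% and 38.7%. Without strand these percentages are not comparable between genes, and no such share over all genes is given here. The median length of the 9 genes was 2324 bp, against 1934 bp for the 62 WRKY genes without a region. Over all protein-coding genes the medians were 2248 bp for genes holding a region and 2056 bp for the others, a difference in the same direction.

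**Figure D3:**
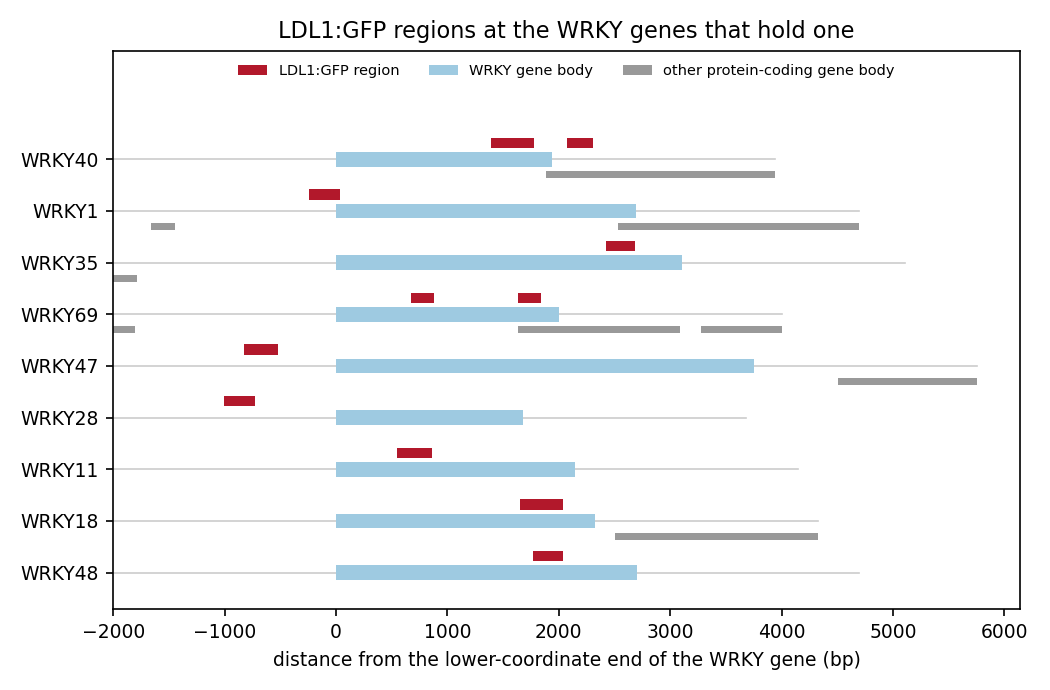
LDL1:GFP regions (red) at the 9 WRKY genes that hold one, drawn to scale in bp from the lower-coordinate end of the WRKY body (blue), with other protein-coding bodies within 2 kb (grey). Regions lie inside the body in WRKY40 (the first of its regions), WRKY35, WRKY69, WRKY11, WRKY18 and WRKY48, across its lower end in WRKY1 and outside it in WRKY47, WRKY28 and WRKY40 (the second region).

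Distance from the chromosome end was examined because genes in the outer 1 Mb of the chromosomes held regions more often, at 33.4%, than genes in the rest of the arms, at 8.77%. In the outer 1 Mb lay 12 WRKY genes, of which 2 (16.7%, exact Clopper-Pearson 95% interval 2.09 to 48.4%) held a region. These were WRKY40, 0.042 Mb from the end, and WRKY47, 0.745 Mb from the end. The other 10 were WRKY66, WRKY43, WRKY46, WRKY23, WRKY58, WRKY45, WRKY68, WRKY22, WRKY13 and WRKY62. In the rest of the arms 7 of 57 WRKY genes (12.3%, interval 5.08 to 23.7%) held one. The 2 WRKY genes in gene-poor bins, WRKY42 and WRKY74, held none. Of all genes there 23.3% did, but 2 genes are too few to set against this share. The WRKY intervals for the outer 1 Mb and for the rest of the arms include the background of their zone. The family is thus not shown to depart from it at either place.

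The number of regions around a WRKY gene differed with its place on the chromosome. Counts within 100 kb of a gene include any region that the gene itself holds. The 12 WRKY genes of the outer 1 Mb had 8 to 20 regions with a median of 15. The 57 in the rest of the arms had 0 to 8 with a median of 3. Over all protein-coding genes the medians were 13 and 3. WRKY66, 0.13 Mb from the end of chromosome 1, had 20 regions within 100 kb, the most of the family, yet the nearest was 5397 bp away. WRKY40, on the same arm, had 18 and WRKY47 had 17. No region lay within 100 kb of WRKY6, WRKY38, WRKY57 or WRKY71. Among the genes that hold a region, WRKY28 and WRKY35 had the fewest within 100 kb, with 3 each, their own region included. The regions at these genes were 56566 and 43960 bp from the next region.

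**Figure D4:**
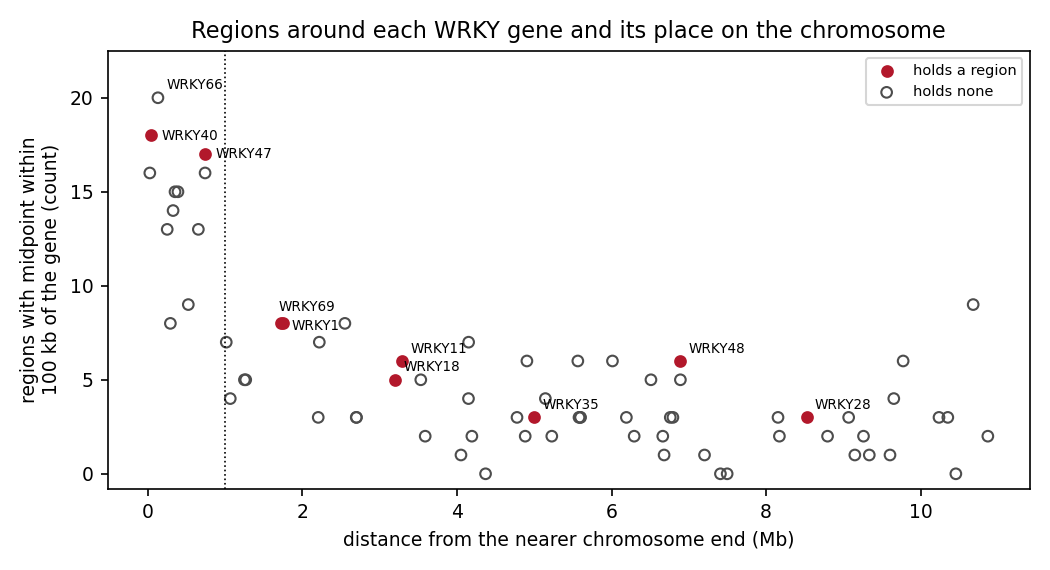
Number of LDL1:GFP regions with a midpoint within 100 kb of each WRKY gene (vertical axis, count) against the distance of the gene from the nearer chromosome end (horizontal axis, Mb), with red points for the 9 genes that hold a region, open points for the others and a dotted line at 1 Mb. The 12 genes left of the line have 8 to 20 regions around them, and the genes with none lie farther in. Counts include the regions that a gene itself holds.

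By chromosome, 4 of 16 WRKY genes on chromosome 4 held a region (WRKY47, WRKY28, WRKY11 and WRKY18; 25%), against 14.8% of all protein-coding genes there. On chromosome 2 the count was 2 of 17 (11.8%) against 15.3%, and on chromosome 3 it was 1 of 6 (16.7%) against 13.2%. On chromosomes 1 and 5 it was 1 of 16 each (6.25%), against 9.18% and 10.9%. The exact 95% interval of each of these 5 WRKY shares included the background of its chromosome.

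Of the 138 protein-coding genes next to a WRKY gene, other than WRKY genes themselves, 17 (12.3%) held a region, against 12.2% of all protein-coding genes. The count was 4 of 18 (22.2%, exact Clopper-Pearson 95% interval 6.41 to 47.6%) for neighbours of WRKY genes with a region. Of these 4, AT1G80850, AT4G31805 and AT3G58720 lay within 1 kb of a region held by the WRKY gene, and only NRAMP1 did not. This share is thus largely set by the choice of genes. For neighbours of WRKY genes without a region the count was 13 of 120 (10.8%), and the 2 shares cannot be compared. At 3 of the 9 WRKY genes with a region, WRKY40, WRKY18 and WRKY69, a region was also within reach (1 kb) of a second protein-coding gene. At WRKY40 and WRKY69 the body of the neighbour was itself overlapped. Of the 11 regions, 5 (45.5%) were shared by 2 or more genes, against 48.8% of the 2650 regions at any protein-coding gene. The other 6, WRKY1, WRKY11, WRKY28, WRKY35, WRKY47 and WRKY48, had regions with no other protein-coding gene within 1 kb. In all, 10 of the 11 regions lay as near to the WRKY gene as to any other protein-coding gene or nearer. The exception was the second region of WRKY40, and no such share is given here for other regions. When each region was given to its nearest gene only, the 9 WRKY genes (12.7%) stood against 9.02% of all protein-coding genes. Of the 62 WRKY genes without a region, 10 had a neighbour with one, such as WRKY22 and WRKY58, each with a neighbour holding a region on both sides. The same count over other genes is not given here.

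Genes that act with WRKY factors were examined as a list of 39: immune receptors and kinases, the MAP kinase cascade, partner proteins, regulators of salicylic acid and output genes. The list was drawn up with earlier results of these data known. A region was held by 3 of the 39 (7.69%, exact Clopper-Pearson 95% interval 1.62 to 20.9%), against 12.2% of all protein-coding genes. The interval includes this background, so the list is not shown to depart from it. MPK4, a MAP kinase that restrains immunity and acts on WRKY33 through its partner MKS1, had a 202 bp region on its body (chromosome 4, 569602 to 569803), which also lay within 1 kb of AT4G01380 and AT4G01390. SIB1, a protein that binds WRKY33 and stimulates its activity, had a 259 bp region on its body (chromosome 3, 21007634 to 21007892) with no other protein-coding gene within 1 kb. GL2, a regulator of trichomes and root hairs downstream of TTG1 and TTG2, was 857 bp away from a 320 bp region (chromosome 1, 30042297 to 30042616). MPK4 and GL2 are close to a chromosome end, at 0.567 and 0.386 Mb. None of the 6 receptors and immune kinases and none of the 12 salicylic acid regulators held a region. These groups are too small to set against the background. ICS1, the target of WRKY28, was 76860 bp from the nearest region, NPR1, the salicylic acid receptor, 150060 bp, and PAD3, the camalexin gene under WRKY33, 20085 bp.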

How the data were processed

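The deposited coordinates are base positions of regions (ChIP) and intervals (input), 1 set for each group, assigned by file name. They carry no score or count. The submitters' processing notes name Bowtie, SICER and TAIR10, with no roles stated. How regions were thresholded, how ambiguous reads were handled and how the replicates were combined is likewise not given in the sources used here. How the input intervals were made is not given either, and they carry no depth. Coordinates are 1-based on TAIR10. Gene positions and names came from a RefSeq table of 37899 nuclear genes for TAIR10.1, used here only for names, distances and neighbours. No genome or protein sequence was used here.

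Distances are differences between the nearest coordinates. Chromosome length is the end of the last input interval. Gene-poor bins are the 22 full 1 Mb bins with under 150 coding genes. Outer genes lie within 1 Mb of an end. Strand was not used here, so the planned classes by start and stop became body and flank. The members, lists and rules were chosen with earlier results of these data known. Named are all WRKY genes with a region, a set of well-studied ones, the 3 nearest and the 3 farthest without one, and others where they complete a count or a pair, chosen after their values were seen. The scripts ran in Python 3.11.15 with pandas 2.3.3, numpy 2.4.6 and, for exact intervals, scipy 1.17.1. Plots were drawn in matplotlib 3.10.9. The overlap code was tested on simulated regions and by brute force.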

Additional observations from a re-analysis of the deposited data

How the results depend on the processing

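The count of WRKY genes with a region stayed between 7 and 11 under 10 of the 11 alternatives, in each case beside a background between 7.68% and 15.6%. When narrow regions, under the median of 300 bp, were left out, it was 4 of 71 (5.63%, against 5.66% of all protein-coding genes), namely WRKY40, WRKY18, WRKY11 and WRKY47. Of their regions, 3 of 4 overlapped the body. Under this rule 1 of the 39 pathway genes (2.56%) kept a region, against the same 5.66%. With gene bodies alone, 2 of the 39 (5.13%) held one, against 7.68% of all protein-coding genes. With gene bodies alone and with a flank of 500 bp, 1 of the 12 WRKY genes of the outer 1 Mb held a region instead of 2, since WRKY47 lay 520 bp from its own. With bodies alone, 21.7% of all protein-coding genes in the outer 1 Mb held one. The same share with 500 bp is not given here. The count with RRS1 included, 9 of 72, was added after seeing the data. No paired analysis was possible because the regions are not separated by replicate, and for the same reason no replicate could be left out. Region width and presence are the only measures here, so the strength of a region and its recurrence between replicates were not measured.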

Other observations

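RRS1, an immune receptor with a WRKY domain that is paired with RPS4, held no region. The nearest lay 14373 bp from RRS1 and 9934 bp from RPS4.

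Some WRKY genes of a group stand beside genes with matching names, and these pairs were picked after the values were seen. WRKY28 and WRKY8 of subgroup IIc lie beside KCO6 and KCO3. WRKY28 held a region at 729 bp, and WRKY8 had none within 20902 bp. WRKY41 and WRKY53 of group III lie beside 3xHMG-box1 and 3xHMG-box2, and their nearest regions were 35041 and 19051 bp away. WRKY2 and WRKY34 of group I lie beside CSN6A and CSN6B, at 1799 and 53908 bp from a region. Only 2 pairs of WRKY genes are immediate neighbours, WRKY54 with WRKY55 and WRKY64 with WRKY67, and none of these 4 held a region.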
